A study of Sus scrofa with 8 samples.

Results

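Heart muscle cells were present in libraries that had been dissected as pig somites, and they were described here across their genes and libraries. A barcode was taken as a cardiac muscle cell when it had at least 200 genes, at most 30000 UMIs and at most 10% of its UMIs on the 13 mitochondrial genes, and when it carried at least 1 UMI of MYBPC3, at least 10 UMIs of ACTC1 and 0 UMIs of MYOG and MYMK. A UMI (unique molecular identifier) marks 1 counted RNA molecule. MYBPC3 encodes cardiac myosin-binding protein C, ACTC1 encodes cardiac alpha-actin, and MYOG and MYMK mark differentiating and fusing skeletal muscle cells. The rule selected 377 of the 82394 cells that passed the first 3 limits, out of 90688 barcodes. Somites of embryonic day 16 (E16), E18 and E21 and myotome of E28 had been collected in Tibetan pigs (ZZ) and in a Duroc by Tibetan cross (DZ), and the labels name no treatment or altered allele. Each library was made from a pool of 5 embryos of 1 sow and was the single library of its stage and breed, so litter, dissection and library cannot be told apart from stage and breed. The somite is the embryonic source of skeletal muscle and axial skeleton and holds no heart muscle by lineage.

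Heart muscle arises from lateral plate mesoderm, at first as a tube that beats while it elongates and loops next to the foregut and the anterior somites. Its cells build sarcomeres, in which myosin thick filaments slide along actin thin filaments under the control of the troponins and tropomyosin, and their Z-discs anchor and sense the force. Transcription factors such as NKX2-5, GATA4, HAND1, HAND2, MEF2C and TBX5 specify the tissue, and the tube is later patterned into ventricle, atrium, outflow tract and the inflow region, where SHOX2 marks the precursors of the pacemaker. ACTC1 is also made by embryonic skeletal muscle, and the rule therefore left out cells with MYOG or MYMK.

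Most of the cardiac cells came from E16. E16-ZZ held 70 cells, E16-DZ 238, E18-ZZ 48 and E18-DZ 20, and 1 more was in E21-ZZ. Their share of the passing cells of E16-ZZ was 1.11% (95% Clopper-Pearson interval 0.868% to 1.40%), that of E16-DZ 2.24% (1.97% to 2.54%), that of E18-ZZ 0.466% (0.344% to 0.617%) and that of E18-DZ 0.193% (0.118% to 0.298%). The 4 intervals did not overlap, but they cover counting error only, and no group has a second library against which a difference could be tested. No cell met the rule among the 10194 cells of E21-DZ, the 10869 of E28-ZZ and the 12173 of E28-DZ, where a count of 0 allows shares of up to 0.0294%, 0.0276% and 0.0246% at 3 counts, and up to 0.0362%, 0.0339% and 0.0303% by the Clopper-Pearson interval. The larger share belonged to DZ at E16 and to ZZ at E18.

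**Figure D1:**
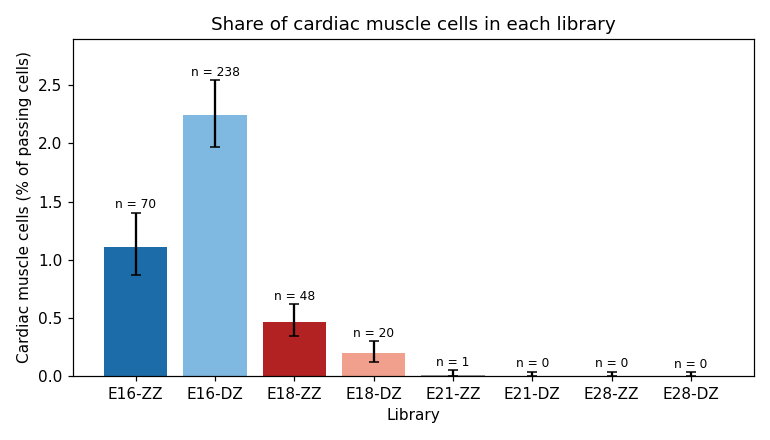
Share of passing cells (%, vertical axis) that met the rule for cardiac muscle cells in each of the 8 libraries (horizontal axis), with 95% Clopper-Pearson intervals. The bar of E16-DZ (2.24%) is the highest, E16-ZZ (1.11%) follows, and the E18 bars lie at 0.466% and 0.193%.

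The mitochondrial limit weighed most on E16-ZZ. There, 161 barcodes met the gene limits of the rule, and 91 of them (56.5%) were over 10% mitochondrial UMIs, against 38.8% of all its barcodes within the other limits. The limit removed 10 of 248 such barcodes of E16-DZ, 3 of 51 of E18-ZZ and 0 of 20 of E18-DZ. With no mitochondrial limit the share in E16-ZZ was 1.56%, still below E16-DZ at 2.13%. With a limit of 5%, the share in E16-ZZ was 0.326% (0.131% to 0.670%) and that in E18-ZZ 0.566% (0.370% to 0.828%), so the order of the stages turned round in ZZ with overlapping intervals, while in DZ it was 1.54% at E16 and 0.125% at E18. The median cardiac cell held 6577, 5999.5, 5912.5 and 5071.5 UMIs (E16-ZZ, E16-DZ, E18-ZZ and E18-DZ), the order in which all series of 4 values are given from here on. Summed, they gave 480426, 1605529, 293387 and 125435 UMIs, so values of E18-DZ rest on the fewest counts. High doublet scores were found in 4, 39, 3 and 0 of the cardiac cells, which were kept. Among all passing cells they numbered 317 of 6297, 899 of 10603, 849 of 10301 and 856 of 10347, as set by the assumed doublet rate. The cardiac share of E16-DZ, 39 of 238, was above that of all its passing cells, and those of both E18 libraries were below. Of 81555 barcode sequences, 831 occurred in 2 or more libraries, and none of the cardiac barcodes was a cardiac cell in a second library.

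The values chosen by the rule were graded. The median count of ACTC1 in the cardiac cells was 116.5, 96.5, 84 and 70 UMIs. MYBPC3 was at exactly 1 UMI in 18, 59, 15 and 6 cells and at 2 or more in 52, 179, 33 and 14. Just inside the limit, 3, 12, 4 and 5 cells had 10 to 14 UMIs of ACTC1. Just outside, 5, 7, 2 and 1 cells had MYBPC3 with 5 to 9 UMIs of ACTC1, and 36 cells of E16-ZZ, 83 of E18-ZZ, 65 of E18-DZ and a larger number of E16-DZ had 10 or more of ACTC1 without MYBPC3. Those ACTC1 cells without MYBPC3 held TNNT2, cardiac troponin T, at 3431, 2449.6, 594 and 686 UMIs per 1000000 UMIs (CPM). These levels were below those of the cardiac cells of the same libraries, and at E18 the MYLPF of these cells, a fast skeletal myosin light chain, stood at 104 and 190.0 CPM.

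The single cell of E21-ZZ lacked several heart genes. Its 5678 UMIs included 32 of ACTC1 and 1 of MYBPC3, with 3 of MYL2 and 2 of MYL4, but 0 of TNNT2, NKX2-5 and MYH7. It held 2 UMIs of MYF5, a determination factor of skeletal muscle, and 4 of TNNC2, the fast skeletal troponin C. It met the rule and was counted, and it was left out of all values below, which concern the 376 cells of the 4 early libraries.

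The label was checked against genes that the rule did not use. Expression was measured as CPM, the UMIs of a gene summed over the cardiac cells of a library per 1000000 UMIs of these cells. They count 3′ ends and are not divided by transcript length. Against the other passing cells of the same library, 109 of 7133 genes (1.53%) were at least 4-fold higher in each of the 4 libraries after 5 was added to both levels, and 7 (0.0981%) were at least 4-fold lower. Since the cells were selected by counts of these same barcodes, this contrast is a description and carries no test. Slow and cardiac myosin heavy chain MYH7 had the largest lowest-of-4 fold, at 207, with 7803, 6773, 7465 and 6944 CPM in cardiac cells and a mean of 19.3 in other cells. Troponin T gene TNNT2 was at 12424, 10616, 9499 and 7016, at least 149.2-fold above the other cells of each library. The embryonic and atrial light chain MYL4 was at 10445, 9183, 7942 and 9152 and the slow and cardiac troponin C gene TNNC1 at 4552, 5343, 4394 and 2495, with lowest folds of 169 and 79.5. MYL9, a regulatory myosin light chain of smooth and non-muscle cells and the third marker given with these cells, was at 1790.1, 2431, 1922 and 1794 CPM, 8.43-fold to 15.8-fold above the other cells.

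**Figure D2:**
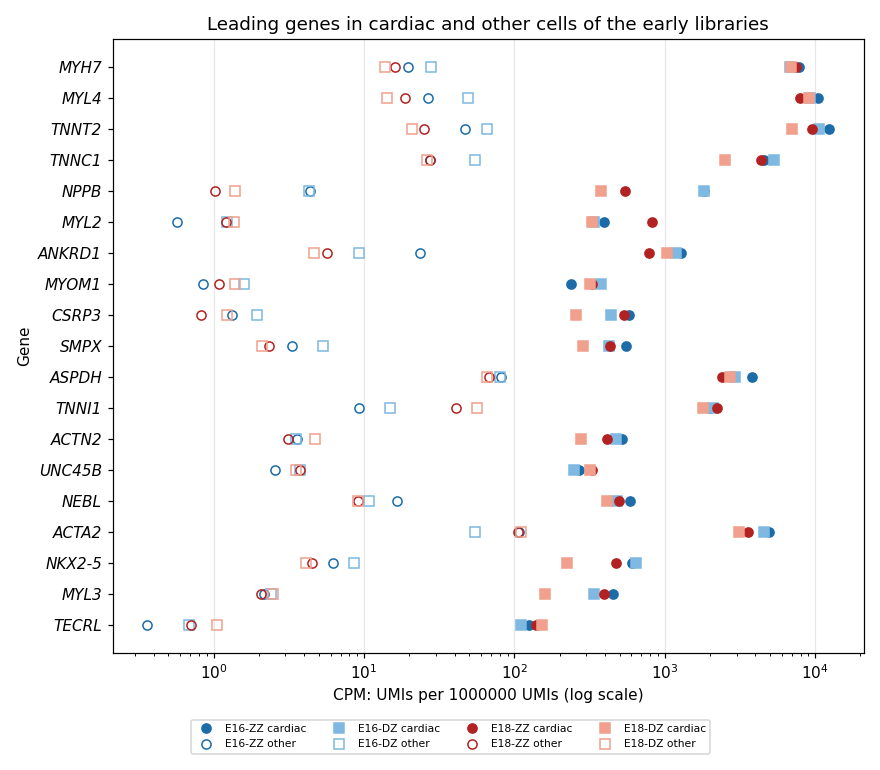
CPM (UMIs per 1000000 UMIs, log scale, horizontal axis) of 19 of the 20 genes with a symbol and the largest lowest fold over other cells, in cardiac cells (filled) and other cells (open) of E16-ZZ, E16-DZ, E18-ZZ and E18-DZ. Filled and open symbols do not overlap for any of the 19 genes, and MYH7 lies between 6773 and 7803 in cardiac cells and near 19.3 on average in other cells.

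Some leading genes were not sarcomere proteins by their symbol. ASPDH, an aspartate dehydrogenase domain gene, was at 3790.4, 2926, 2389 and 2727 CPM. NPPB, the B-type natriuretic peptide, had a lowest fold of 59.5, and TECRL, a reductase-like protein of the sarcoplasmic reticulum, was at 125, 111, 139.7 and 151.5.

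To show the control region beside the expression values, the promoters of the markers MYBPC3 and MYL9 and of NPPB, whose level differed between stages, are given as the 250 bases before the RefSeq gene start in Sscrofa11.1. Motifs were searched on both strands, apart from TATAAA, which was searched on the strand of the gene only. Capitals mark the MEF2 motif CTANNNNTAG, the GATA motif AGATAA or TTATCT, the CArG box, which is the site of serum response factor, and the MCAT motif CATTCC or GGAATG, which is the site of TEAD factors.
MYBPC3, chr2:15247429-15247678, plus strand: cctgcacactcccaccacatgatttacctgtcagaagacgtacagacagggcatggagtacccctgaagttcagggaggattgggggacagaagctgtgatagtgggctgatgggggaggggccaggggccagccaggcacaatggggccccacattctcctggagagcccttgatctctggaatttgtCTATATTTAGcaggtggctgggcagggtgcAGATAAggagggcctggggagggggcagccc
MYL9, chr17:39787915-39788164, plus strand: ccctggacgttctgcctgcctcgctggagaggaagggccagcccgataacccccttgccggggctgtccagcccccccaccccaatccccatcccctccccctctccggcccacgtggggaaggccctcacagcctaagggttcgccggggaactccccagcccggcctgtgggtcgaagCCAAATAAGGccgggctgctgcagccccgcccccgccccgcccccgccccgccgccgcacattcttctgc
NPPB, chr6:71931844-71932093, minus strand: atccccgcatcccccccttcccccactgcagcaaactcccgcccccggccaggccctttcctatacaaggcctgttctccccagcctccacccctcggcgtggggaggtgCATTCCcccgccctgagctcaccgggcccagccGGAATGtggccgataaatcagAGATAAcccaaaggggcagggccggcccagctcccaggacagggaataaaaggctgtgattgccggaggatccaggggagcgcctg

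The MYBPC3 promoter held a MEF2 motif at bases -61 to -52 and a GATA motif at -31 to -26. The MYL9 promoter held a CArG box at -70 to -61. The NPPB promoter held 2 MCAT motifs, at -140 to -135 and -107 to -102, and a GATA motif at -86 to -81. None of these motifs overlapped another of them. Of the 109 genes above, the promoters of 96, matched by symbol, were used. A CArG box was found in 7 of these 96 (7.29%) and in 1.31% of all 19559 promoters, and a MEF2 motif in 7 (7.29%) and 2.31%. MCAT motifs were found in 16.7% and 10.3%, and GATA motifs in 12.5% and 8.08%. The other motifs searched, AAGTG or CACTT for NKX factors and TATAAA, were found in 30.2% and 35.1% and in 6.25% and 6.15%. These shares describe letters in a window and not occupied sites.

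Thick filament genes were high in all 4 early libraries. Of 8 such genes in the counts besides MYBPC3, 5 were high enough for the fold. All 5 were at least 4-fold above other cells in every library, beside 1.53% of all 7133 genes. They were MYH7, MYL2, MYL3, MYL4 and MYOM1. The ventricular light chain MYL2 was at 391, 338, 821 and 327 CPM and the ventricular and slow skeletal light chain MYL3 at 452, 337, 392.0 and 159. E18-ZZ was highest for MYL2 and E18-DZ lowest for both. MYH7 ranged from 6773 to 7803 over the 4 libraries, with log2 fold change -0.08 ± 0.22 (SE), adjusted p = 0.95 for E18 against E16 by edgeR's quasi-likelihood test. No row carries the symbol MYH6, MYL7 or TTN, and 5781 genes in the counts have an identifier without a symbol.

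Thin filament genes were high in the same libraries. TNNI1, the slow skeletal troponin I that embryonic heart uses, was at 1984, 2095, 2212 and 1786 CPM. TNNI3, the adult cardiac troponin I, was at 35.4, 16.8, 6.82 and 7.97. TPM1, the main striated muscle tropomyosin, was at 9641, 8727, 9257 and 8363. Of 9 listed genes besides ACTC1, all high enough for the fold, 5 were at least 4-fold above other cells in each library. This stands beside 1.53% of all 7133 genes. The 5 were TNNT2, TNNI1, TNNC1, TPM1 and LMOD2, which elongates thin filaments. ACTC1, which the rule required, was at 18209, 16233, 17479 and 15913.

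Of the 17 Z-disc genes listed, 14 were high enough for the fold. Of these, 12 were at least 4-fold above other cells in each early library, beside 1.53% of all 7133 genes. ANKRD1, a stretch-responsive repeat protein, averaged 1069 ± 212 CPM (SD, n = 4 libraries) against 10.8 in other cells. CSRP3 and SMPX, small proteins of the Z-disc and costamere, averaged 451 ± 143.1 and 425 ± 109. Desmin (DES), the muscle intermediate filament, was at 874, 789, 951 and 925, alpha-actinin 2 (ACTN2) averaged 423 ± 105, and the myosin chaperone UNC45B averaged 291 ± 39.9. Of 14 Z-disc genes tested between stages, 0 passed, beside 17 of all 4399 genes (0.386%).

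Among cardiac transcription factors, the homeobox factor NKX2-5 was at 604, 644, 474 and 223 CPM against 6.23, 8.53, 4.52 and 4.11 in other cells. The lower value in E18-DZ was not past the threshold between stages (log2 fold change -0.94 ± 0.28 (SE), adjusted p = 0.27). MEF2C was at 246, 182, 242 and 159, GATA4 at 91.6, 67.3, 92.0 and 191 and HAND1 at 121, 182, 64.8 and 31.9. SMYD1, a muscle lysine methyltransferase needed for heart muscle, was at 160.3, 253, 181 and 136, and MYOCD, the coactivator of serum response factor, at 27.1, 27.4, 47.7 and 119.6. Of 19 listed factors, 15 were high enough for the fold. Of these, 4 (NKX2-5, MEF2C, SMYD1 and MYOCD) were at least 4-fold above other cells in each library, beside 1.53% of all 7133 genes. The summed list was at 1642, 1705, 1602 and 1387 against 405, 391, 259.7 and 279 CPM. TBX5 was at 12.5, 16.8, 23.9 and 23.9 CPM. TBX20 was at 0, 9.34, 6.82 and 0, with no UMI in the cardiac cells of E16-ZZ and E18-DZ.

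The excitation and calcium list was present in part. ATP2A2, the calcium pump of the sarcoplasmic reticulum, was at 360.1, 445, 317 and 733 CPM, and SLC8A1, the sodium-calcium exchanger, at 198, 224, 164 and 175. The ryanodine receptor RYR2 averaged 74.7 ± 12.5 and the pacemaker channel HCN4 was at 31.2, 33.0, 71.6 and 159. HCN4 was not past the threshold (log2 fold change 1.76 ± 0.39 (SE), adjusted p = 0.0578). KCNJ3 and SLN had 0 UMIs in all 376 cells, where 3 UMIs would have made 1.20 CPM over the 2504777 UMIs of these cells. Of 18 listed genes, 12 were high enough for the fold. Of these, 6 were at least 4-fold above other cells in each library, beside 1.53% of all 7133 genes.

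The sum of the glycolysis list was above, and that of the cell division list below, that of other cells. Of 16 glycolysis genes high enough for the fold, 2 were at least 4-fold higher in each library, beside 1.53% of all 7133 genes. Of 17 cell division genes 0 were at least 4-fold lower, beside 0.0981% of all genes. The glycolysis list summed to 23304, 25601, 25322 and 21509 CPM against 13614, 15193, 13792 and 13011 in other cells, much of it from GAPDH at 9599.8, 12358, 11364 and 9718. ENO3, the muscle enolase, and SLC25A4, the muscle and heart ADP/ATP carrier, averaged 197 ± 43.7 and 413 ± 59.4. Creatine kinase B (CKB) was at 2200.1, 2551, 1244 and 989. The cell division list summed to 1449, 1906, 2093 and 1483 against 2660.1, 3000.5, 3618 and 3628 in other cells. Of its 15 genes tested between stages 0 passed, beside 0.386% of all genes. TOP2A, the mitotic topoisomerase, was at 158, 214, 228 and 151.5 against 288, 412, 573 and 636.

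Smooth muscle contractile genes were among the leading genes as well, as is known for early heart muscle. ACTA2, smooth muscle actin, was at 4946, 4598, 3572 and 3125 CPM against 107, 54.4, 106 and 110.1 in other cells, and TAGLN, transgelin, at 3070.2, 3025, 2420.0 and 2121. Of 10 genes on the list, 9 were high enough for the fold. Of these, 6 were at least 4-fold higher in each library, beside 1.53% of all 7133 genes. They were ACTA2, TAGLN, CNN1, MYL9, LMOD1 and MYLK.

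Markers of several other cell types were found at low levels in the cardiac cells. Of 18 listed skeletal muscle genes, 9 were at 0 UMIs in all 4 libraries, MYOG and MYMK by rule, and the list summed to 97.8, 77.9, 68.2 and 95.7 CPM, against 33.9, 36.0, 154 and 168 in other cells. At E16 it was thus higher in the cardiac cells, with MYH3 at 33.3 and 34.9 against 0.212 and 0.543. For comparison, cells with UMIs of both MYH3 and MYMK held MYLPF at 5942 and 5056 in the E18 libraries, where cardiac cells held 0 and 15.9. NKX2-5 was at 2.77 and 0 CPM in those skeletal cells. Endothelial markers summed to 304, 123, 78.4 and 95.7, fibroblast markers to 364, 398, 457 and 462 and macrophage markers to 0, 2.49, 0 and 0. Fibrillar collagen gene COL3A1 was one of the 7 genes at least 4-fold lower than in other cells in each library, with CXCL14, APOE, HBB, AHSP, MARCKS and ENSSSCG00000009648. Epithelial markers were not low. They summed to 3586, 3822, 2171 and 2224, most of it from the keratins KRT8 and KRT18, which were also present in other cells. The same sum in other cells was 7216, 6345, 2461 and 2028, so in E18-DZ the cardiac cells stood above them.

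Erythroid genes stood apart in 1 library. They summed to 189, 513, 6408 and 144 CPM, against 6392, 12614, 15039 and 8721 in other cells. In E18-ZZ a single cardiac cell held 573 of the 688 UMIs of HBZ (83.3%) and 971 of the 1181 of HBE1 (82.2%), the embryonic globins. Without this cell the erythroid sum of E18-ZZ was 1149 CPM.

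The comparison of E18 with E16 asked which genes of the cardiac cells changed over these days. Summed counts of the 4 libraries were fitted by edgeR's quasi-likelihood test with breed as covariate, and adjusted p-values (Benjamini-Hochberg) cover all genes tested. The design has 2 libraries a stage and leaves 1 residual degree of freedom for each gene, which edgeR moderates across genes. Of 4399 genes, 17 passed an adjusted p of 0.05 (0.386%), 10 higher and 7 lower at E18, and 423 were under an unadjusted p of 0.05. The higher genes included a smooth muscle actin and regulators of the inflow region, and the lower genes a natriuretic peptide and skeletal alpha-actin. The median log2 change over all 4413 genes in the fit was 0.02. The E16 counts had been made with Cell Ranger 3.1.0 and the E18 counts with 3.0.2, so version and stage cannot be told apart.

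ACTG2, the enteric smooth muscle actin, rose with the smallest adjusted p. It was at 45.8, 27.4, 682 and 558 CPM, so both E18 libraries were above both E16 libraries (log2 fold change 4.07 ± 0.27 (SE), adjusted p = 6.14e-08). These values rest on 22, 44, 200 and 70 UMIs in 11, 14, 11 and 9 cells, and 1 cell of E18-ZZ held 27.0% of its 200. In other cells ACTG2 was at 2.29, 1.97, 8.10 and 6.93. MYLK, the myosin light chain kinase of smooth muscle, rose from 144 and 182 to 331 and 526 (log2 fold change 1.31 ± 0.24 (SE), adjusted p = 0.0161). SYNPO2, an actin-binding Z-disc protein, was at 0, 4.36, 30.7 and 55.8 and rose (log2 fold change 3.95 ± 0.77 (SE), adjusted p = 0.0257). These values rest on 0, 7, 9 and 7 UMIs, and the call was lost in each of the 3 fits with a library left out that tested the gene, those without E16-ZZ, E16-DZ and E18-DZ. TNC, the matrix protein tenascin C, was at 54.1, 51.1, 109 and 303 (log2 fold change 1.84 ± 0.37 (SE), adjusted p = 0.0289), and the plasma membrane calcium pump gene ATP2B1 at 102, 151.4, 252 and 367 (log2 fold change 1.23 ± 0.23 (SE), adjusted p = 0.02).

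A pair of transcription factors of the inflow region rose as well. NR2F2, an orphan nuclear receptor needed for atrial identity, was at 54.1, 34.3, 191 and 231 CPM (log2 fold change 2.22 ± 0.33 (SE), adjusted p = 0.00318). Other cells of the same libraries were at 53.5, 42.4, 142.8 and 147. SHOX2, which keeps pacemaker precursors from becoming working muscle, was at 58.3, 19.3, 123 and 415 (log2 fold change 2.83 ± 0.53 (SE), adjusted p = 0.0182). Its other cells were at 2.44, 1.95, 3.01 and 2.95, far below the cardiac cells in each library. The change of SHOX2 differed in size between breeds, with a log2 change of 1.01 in ZZ and 4.11 in DZ, a difference that was not tested. A single cell held 42.3% of the 52 UMIs of E18-DZ.

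Secreted Wnt modulators and an IGF-binding protein were also higher at E18. SFRP1 was at 66.6, 118, 198 and 343 CPM (log2 fold change 1.49 ± 0.25 (SE), adjusted p = 0.0118), and SFRP5, known from the inflow progenitors, at 12.5, 13.7, 64.8 and 95.7 (log2 fold change 2.57 ± 0.47 (SE), adjusted p = 0.0161). IGFBP5 was at 24.98, 38.6, 157 and 87.7 (log2 fold change 1.84 ± 0.38 (SE), adjusted p = 0.0316). For SFRP1 the other cells stood at 149.5, 191, 295 and 362, above the cardiac cells in each library and also higher at E18. How much of its RNA came from other cells was not tested. The SFRP5 values rest on 6, 22, 19 and 12 UMIs, of which the highest cell held 16.7%, 9.09%, 47.4% and 41.7%. Other cells held SFRP5 at 34.9, 33.1, 26.3 and 21.0 CPM, above the cardiac cells at E16 and below them at E18. The IGFBP5 values rest on 12, 62, 46 and 11 UMIs.

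NPPB and ACTA1 were among the genes that fell. NPPB was at 1828, 1821, 545 and 375 CPM, and both E18 values were below both E16 values (log2 fold change -2.06 ± 0.25 (SE), adjusted p = 0.000361). Its UMIs came from 30, 115, 13 and 5 cells. ACTA1, skeletal alpha-actin, which early heart also uses, was at 753, 1009, 211 and 31.9 (log2 fold change -2.84 ± 0.40 (SE), adjusted p = 0.00233), while other cells of these libraries were at 2.80, 4.48, 11.4 and 18.4. The log2 change of ACTA1 was -1.81 in ZZ and -4.78 in DZ, a difference that was not tested. Its value in E18-DZ rests on 4 UMIs in 3 cells. CKB fell from 2200.1 and 2551 to 1244 and 989 (log2 fold change -1.16 ± 0.23 (SE), adjusted p = 0.0315).

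The other genes that fell were not muscle genes. The immediate-early genes FOS and ATF3, which dissociation of tissue can induce, were at 993, 612, 126 and 271 and at 304, 94.7, 88.6 and 39.9 CPM. FOS changed with log2 fold change -2.18 ± 0.36 (SE), adjusted p = 0.00863 and ATF3 with log2 fold change -1.75 ± 0.32 (SE), adjusted p = 0.0161. Other cells of the same libraries held FOS at 732, 431, 115 and 242 and ATF3 at 219.7, 57.8, 24.0 and 34.9, and in the interaction, which sets the change of cardiac cells against that of other cells, neither passed (log2 -0.42 ± 0.23 (SE), adjusted p = 0.979 for FOS and 0.72 ± 0.33 (SE), adjusted p = 0.809 for ATF3, edgeR). CXCL14, a chemokine, was at 47.9, 71.0, 3.41 and 0 (log2 fold change -4.51 ± 0.81 (SE), adjusted p = 0.0161) and APOE, apolipoprotein E, at 83.3, 173, 30.7 and 7.97 (log2 fold change -2.36 ± 0.47 (SE), adjusted p = 0.0308). Both were far higher in other cells, at 804, 649.8, 168 and 116 for CXCL14 and 1252, 841, 213 and 243 for APOE, and also lower there at E18. At 2000 UMIs a cell, CXCL14 was found in 1.47%, 10.1%, 2.63% and 0% of the cardiac cells and in 9.94%, 12.5%, 4.31% and 2.71% of cells with a UMI of PAX6, a neural gene. The PAX6 share was taken as the level that free RNA can give, and whether these cells make CXCL14 was not tested. In no library was the cardiac share above it. In E16-DZ 1 cardiac cell held 35 of the 114 UMIs of CXCL14 (30.7%). Whether the change is one of expression in cardiac cells was not tested. For APOE the part of free RNA was not tested.

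These calls varied in firmness. Without the globin-rich cell of E18-ZZ, 2 of 4389 genes passed, ACTG2 and NPPB. The log2 changes of the other 15 moved by at most 0.085, and their adjusted p-values in edgeR's quasi-likelihood test were 0.0797 to 0.217. With a mitochondrial limit of 5% none of 1157 genes passed in edgeR's quasi-likelihood test, 77 were under an unadjusted p of 0.05, and E16-ZZ and E18-DZ kept 7 cardiac cells each. ACTG2 and NPPB passed in 14 of 15 alternatives, and the other 15 genes in 6 to 13 of 12 to 15. Of these alternatives, up to 4 leave out 1 library. They were fitted without the breed term, so that 1 residual degree of freedom is left and the lone library of a stage is assumed to vary like the pair of the other. ATF3, ATP2B1, MYLK and SFRP1 were not called without E16-ZZ or without E18-DZ, TNC without E18-DZ, IGFBP5 without E18-ZZ and CXCL14 without E16-DZ.

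The lists were read beside the 0.386% of all genes that passed. No gene passed among 5 thick filament genes tested (median log2 change -0.08), 14 Z-disc genes (-0.38), 11 cardiac transcription factors (-0.17), 10 calcium and excitation genes (0.21) and 15 glycolysis genes (0.05). Of 7 thin filament genes 1 fell, ACTA1 (median -0.48). Of 8 smooth muscle genes MYLK rose, while the list median was -0.35, and ACTG2 is not on this list. Of 8 secreted factors SFRP1 and SFRP5 rose and NPPB fell. Of the 12 genes on the atrial and inflow list, no row carries the symbol MYL7, NPPA or MYH6, and TBX18 had 0, 1, 0 and 1 UMIs. Of the 8 on the ventricular list, no row carries the symbol PLN, and IRX4 had 0 UMIs in each library. Of 5 atrial and inflow genes NR2F2 and SHOX2 rose, with a list median of 1.76, and of 5 ventricular genes NPPB fell, with a median of -0.63. The remaining members were not past the threshold, among them HAND1 (log2 fold change -1.53 ± 0.37 (SE), adjusted p = 0.0837) and MYL2 (log2 fold change 0.49 ± 0.27 (SE), adjusted p = 0.62).

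The share of cells that carried a chamber gene was compared at equal depth, with each cell thinned to 2000 UMIs. This used 68, 208, 38 and 17 cardiac cells, and left out 2, 30, 10 and 3 shallower ones. As the level that free RNA can give, the same share was taken in cells with a UMI of PAX6, a gene of the neural tube, whose median depth before thinning was 5869, 5758, 6133 and 5076 UMIs. Cells with 10 or more UMIs of ACTC1 were left out of the PAX6 cells, which can lower that level for heart genes. A gene that the PAX6 cells make themselves would stand above that level in them, and this was not tested for each gene. NPPB was found in 29.4%, 41.3%, 18.4% and 11.8% of the thinned cardiac cells and in 0.904%, 0.393%, 0% and 0% of the PAX6 cells. Before thinning it was in 30 of 70, 115 of 238, 13 of 48 and 5 of 20 cardiac cells. ACTG2 was found in 7.35%, 3.37%, 23.7% and 47.1% (before thinning in 11 of 70, 14 of 238, 11 of 48 and 9 of 20), against 0%, 0.393%, 0.210% and 0% of the PAX6 cells. SHOX2 was found in 7.35%, 3.85%, 7.89% and 29.4% and in 0% of the PAX6 cells of each library, where a count of 0 allows up to 0.904%, 0.393%, 0.315% and 0.325% (before thinning in 9 of 70, 17 of 238, 11 of 48 and 7 of 20 cardiac cells).

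The ventricular light chain gave no such order. MYL2 was found in 32.4%, 30.8%, 39.5% and 17.6% of thinned cells, with a Clopper-Pearson interval of 24.0% to 56.6% in E18-ZZ and 3.80% to 43.4% in E18-DZ, and before thinning in 28 of 70, 124 of 238, 22 of 48 and 3 of 20. NR2F2 was found in 16.2%, 3.37%, 28.9% and 47.1% of thinned cardiac cells and in 5.72%, 4.85%, 11.8% and 16.3% of PAX6 cells, and in E16-DZ the cardiac share was not above that of the PAX6 cells (before thinning 13 of 70, 33 of 238, 20 of 48 and 10 of 20 cardiac cells). NKX2-5 was found in 76.5%, 68.8%, 55.3% and 41.2% of thinned cardiac cells, against 0.602%, 0.131%, 0.315% and 0% of PAX6 cells, and before thinning in 65 of 70, 210 of 238, 35 of 48 and 13 of 20. ACTA1 was found in 42.6%, 51.0%, 23.7% and 17.6% (before thinning in 35 of 70, 142 of 238, 13 of 48 and 3 of 20).

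**Figure D3:**
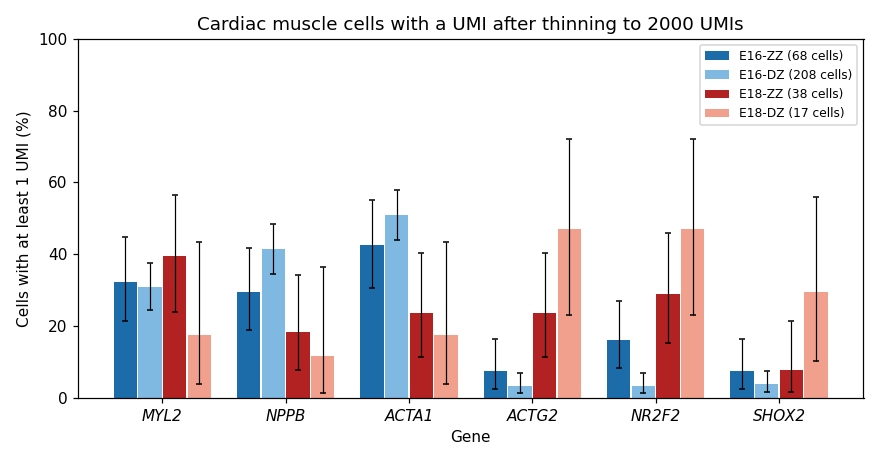
Cardiac cells with at least 1 UMI of a gene (%, vertical axis) after each cell was thinned to 2000 UMIs, for chamber and stage genes (horizontal axis) in the 4 early libraries, with 95% Clopper-Pearson intervals. ACTG2 goes from 7.35% and 3.37% at E16 to 23.7% and 47.1% at E18, with intervals that overlap between E16-ZZ (2.43% to 16.3%) and E18-ZZ (11.4% to 40.2%) and not between the DZ libraries, and MYL2 lies between 17.6% and 39.5% with overlapping intervals.

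Within a library, SHOX2 and MYL2 were seldom found in the same cell. Of the cells with a SHOX2 UMI, MYL2 was found in 0 of 9, 2 of 17, 0 of 11 and 0 of 7, which is 0%, 11.8%, 0% and 0%, where a count of 0 allows up to 33.3%, 27.3% and 42.9% in the libraries with none. Of the other cardiac cells of the same libraries, 45.9%, 55.2%, 59.5% and 23.1% carried MYL2, and in E18-DZ this lies within what a count of 0 allows. The median depth of the cells with SHOX2 was 6191, 7000, 6392 and 4880 UMIs and that of the other cells 6731, 5966, 4921 and 5263, so depth did not order them alike in all libraries. NR2F2 was found in 22.2%, 47.1%, 90.9% and 71.4% of the cells with SHOX2 and in 18.0%, 11.3%, 27.0% and 38.5% of the others, the wider gap being in both E18 libraries and in E16-DZ. ACTG2 was in 44.4%, 35.3%, 72.7% and 71.4% of the cells with SHOX2 and in 11.5%, 3.62%, 8.11% and 30.8% of the others. These shares were not tested, since the cells of a library are not replicates.

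**Figure D4:**
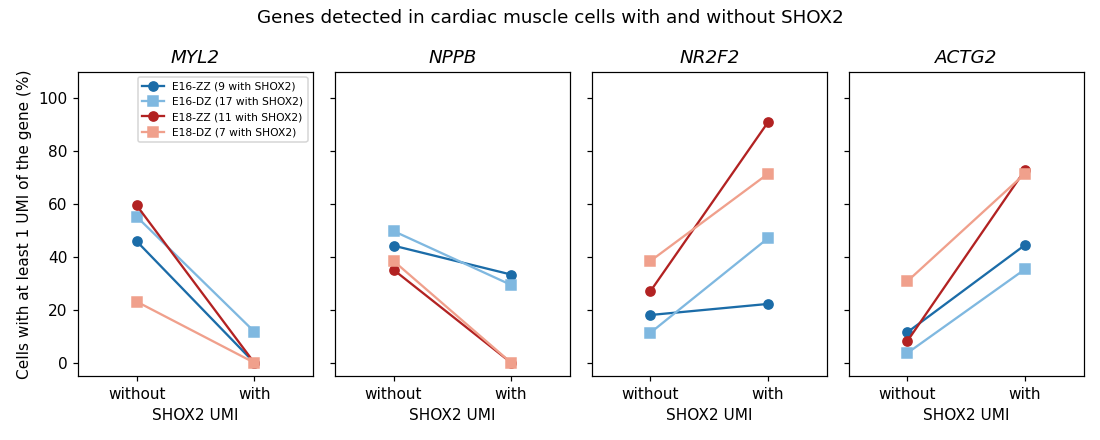
Cardiac cells with at least 1 UMI of MYL2, NPPB, NR2F2 or ACTG2 (%, vertical axis) among cells without and with a SHOX2 UMI (horizontal axis), with a line for each of the 4 early libraries. MYL2 is at 0% in 3 libraries and 11.8% in E16-DZ among cells with SHOX2, and ACTG2 reaches 72.7% and 71.4% at E18.

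A split by MYL2 sorted the same cells from the other side, so its SHOX2 values restate the counts above. NPPB was at 4093, 2537, 778 and 286 CPM in cells with MYL2 and at 204, 938, 364 and 396 in cells without it, so it was higher with MYL2 in 3 libraries and not in E18-DZ, which had 3 cells with MYL2. ACTG2 was at 19.9, 12.4, 0 and 0 with MYL2 and at 64.3, 45.9, 1213 and 694 without it. ACTA1 was at 1107, 1208, 451 and 40.8 with MYL2 and 500.3, 764, 24.3 and 29.7 without, and SHOX2 at 0, 4.51, 0 and 0 and 100.1, 37.5, 218 and 515. In E18-DZ the ACTA1 values rest on 1 UMI with MYL2 and 3 without. All ACTG2 UMIs of the E18 libraries thus lay in cells without MYL2, and NPPB was lower at E18 in the cells with MYL2 of both breeds. In the cells without MYL2, NPPB was higher at E18 in ZZ and lower in DZ. Whether the proportions of these cells or the level in each differed between stages was not tested.

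Because all cells of a library share its depth and handling, the stage change of cardiac cells was also set against that of the other cells of the same libraries, with library as a block. In this interaction, 74 of 13671 genes passed (0.541%), 42 with a higher and 32 with a lower E18 against E16 change in cardiac cells, and 727 were under an unadjusted p of 0.05. The median over all genes in the fit was -0.19. Of the 17 genes above, 8 were among the 74, all with the same sign, namely ACTA1, CKB, ATP2B1, MYLK, IGFBP5, SFRP5, SHOX2 and ACTG2. NPPB, NR2F2 and FOS were not. Both tests used the same sums of cardiac cells, so the shared genes and signs are not independent support. The interaction leaves few residual degrees of freedom, and its p-values and SE do not measure the spread between litters. In cardiac cells the log2 change of ACTA1 was -1.81 in ZZ and -4.78 in DZ. That of HBE1 was 5.24 in ZZ and -2.89 in DZ, and both genes passed.

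Several of the genes with a lower change were higher at E18 in the other cells, which at that stage included cells with MYH3 and MYMK (37 in E18-ZZ and 67 in E18-DZ). TNNI1 was at 1984, 2095, 2212 and 1786 CPM in cardiac cells and 9.22, 14.8, 40.6 and 56.0 in others (log2 difference of changes -2.13 ± 0.19 (SE), adjusted p = 2.37e-26). TRIM55, a ubiquitin ligase of the sarcomere, was at 160.3, 220.5, 170.4 and 215 in cardiac cells and 1.17, 1.302, 5.21 and 6.90 in others (log2 difference of changes -2.37 ± 0.30 (SE), adjusted p = 4.35e-12). ACTA1 fell in cardiac cells and was higher at E18 in others (log2 difference of changes -4.63 ± 0.25 (SE), adjusted p = 7.31e-72). MYH3, the embryonic skeletal myosin, was at 33.3, 34.9, 13.6 and 31.9 in cardiac cells and 0.212, 0.543, 7.61 and 12.0 in others (log2 difference of changes -5.37 ± 0.63 (SE), adjusted p = 2.91e-14). NES, the intermediate filament nestin, and COL2A1, the cartilage collagen, also had lower changes, with log2 difference of changes -1.65 ± 0.22 (SE), adjusted p = 1.20e-10 and with log2 difference of changes -1.52 ± 0.23 (SE), adjusted p = 5.59e-08. So did the smooth muscle genes ACTA2 and TAGLN (log2 difference of changes -1.11 ± 0.17 (SE), adjusted p = 4.90e-08, and log2 difference of changes -1.07 ± 0.18 (SE), adjusted p = 1.16e-06).

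Of 18 cardiac transcription factors tested, 3 had a higher change in cardiac cells, HAND2, GATA4 and HEY1, beside 0.541% of all genes in either direction. HAND2 was at 70.8, 63.5, 116 and 95.7 CPM in cardiac cells and 53.0, 46.5, 20.1 and 15.4 in other cells (log2 difference of changes 2.04 ± 0.35 (SE), adjusted p = 2.20e-06), so it was lower at E18 outside the cardiac cells. HEY1, a Notch target, was at 31.2, 19.9, 51.1 and 112 in cardiac cells and 10.96, 15.2, 12.98 and 10.2 in others (log2 difference of changes 1.73 ± 0.48 (SE), adjusted p = 0.0498). GATA4 was at 91.6, 67.3, 92.0 and 191 in cardiac cells and 29.4, 24.2, 16.4 and 13.2 in others (log2 difference of changes 1.44 ± 0.34 (SE), adjusted p = 0.00503). ISL1, a factor of second heart field and pacemaker cells, was at 20.8, 9.34, 64.8 and 39.9 in cardiac cells and 10.5, 12.99, 12.6 and 11.4 in others (log2 difference of changes 2.09 ± 0.55 (SE), adjusted p = 0.0259). The HEY1 values rest on 15, 32, 15 and 14 UMIs, of which the highest cell held 40.0%, 9.38%, 46.7% and 64.3%. Those of ISL1 rest on 10, 15, 19 and 5 UMIs. Of 8 atrial and inflow genes tested here, SHOX2 and ISL1 had a higher change and NR2F1 a lower one. NR2F1 was at 154, 138, 177 and 215 in cardiac cells and 98.9, 115, 302 and 404 in others (log2 difference of changes -1.34 ± 0.25 (SE), adjusted p = 4.19e-05). ATP1B1, a subunit of the sodium pump, was at 412, 412, 648 and 718 in cardiac cells and 40.6, 32.2, 19.4 and 13.3 in others (log2 difference of changes 1.76 ± 0.22 (SE), adjusted p = 9.05e-13). PKIG, an inhibitor of protein kinase A, was at 235, 234, 239 and 462 in cardiac cells and 102, 59.5, 30.8 and 26.4 in others (log2 difference of changes 1.76 ± 0.24 (SE), adjusted p = 2.15e-10). Among genes outside these lists, MYLK and ACTG2 passed here too (log2 difference of changes 2.25 ± 0.24 (SE), adjusted p = 9.98e-17, and log2 difference of changes 2.27 ± 0.32 (SE), adjusted p = 1.25e-09). TNNT2 (log2 difference of changes 0.70 ± 0.15 (SE), adjusted p = 0.00177) and MYL4 (log2 difference of changes 0.85 ± 0.16 (SE), adjusted p = 2.55e-05) passed with positive values, and their other cells were at 46.6, 66.2, 25.1 and 20.9 and at 26.8, 49.4, 18.9 and 14.3. The other cells include those with ACTC1 and without MYBPC3, whose part in these values was not tested.

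The firmness of these calls differed as well. Of 15 alternatives, HAND2 passed in 13, MYL4 in 10 and GATA4, HEY1, ISL1 and TNNT2 in 9. Without E16-DZ, none of GATA4, HEY1, ISL1, TNNT2, MYL4, SHOX2, ACTA2 and TAGLN was called. Without E18-DZ, GATA4, HEY1, MYL4, SHOX2 and ATP2B1 were not called. Without E18-ZZ, HAND2, ISL1, TNNT2 and IGFBP5 were not called, and without E16-ZZ, ATP2B1 was not. HBZ, HBE1 and ENSSSCG00000007978 passed with log2 differences of changes of 2.42, 2.03 and 2.36. Without the globin-rich cell these were 0.62, 0.32 and 0.45 and did not pass, and without the whole library E18-ZZ they were negative. Without that cell, 71 genes passed.

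When cells with a UMI of GATA4 and without ACTC1 at 10 or MYBPC3 served as the other cells, 145 of 10404 genes passed the interaction, and the log2 difference of changes was 0.039 for TRIM55, -0.23 for MYL4 and -1.15 for ANKRD1, against 0.96 for ANKRD1 with all other cells. For ISL1 it was -1.86 with the mitochondrial limit of 5%. For MYH3 the cardiac cells held few UMIs in each library.

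Between breeds, 2 of 4399 genes passed in the cardiac cells (0.0455%), and 220 were under an unadjusted p of 0.05 in edgeR's quasi-likelihood test. CRABP1, a retinoic acid binding protein, was at 18.7, 217, 20.5 and 231 CPM, high in both DZ and low in both ZZ libraries (log2 fold change 3.47 ± 0.35 (SE), adjusted p = 4.96e-05). The value rests on few cells, since 3 cells held 76.1% of the UMIs of E16-DZ and 1 cell held 89.7% of the 29 UMIs of E18-DZ. Other cells were at 452, 693, 581 and 1195. At 2000 UMIs a cell, CRABP1 was found in 2.94%, 9.13%, 0% and 11.8% of the cardiac cells and in 27.1%, 31.1%, 24.6% and 33.1% of the PAX6 cells. In no library was the cardiac share above that of the PAX6 cells. Whether the PAX6 cells make CRABP1 themselves was not tested, so their share may not be a level of free RNA for this gene. Whether the difference is one of expression in cardiac cells was not tested either. Without the globin-rich cell of E18-ZZ, only CRABP1 passed between breeds. ATF3 was lower in DZ, at 304, 94.7, 88.6 and 39.9 (log2 fold change -1.66 ± 0.29 (SE), adjusted p = 0.0377) and was not called without E16-ZZ or without E18-DZ. The other cells were also lower in DZ at E16 but not at E18, at 219.7, 57.8, 24.0 and 34.9. Sarcomere, transcription factor and excitation lists had 0 genes past the threshold between breeds, with median log2 values of -0.17 for thick filament, -0.30 for thin filament, 0.05 for Z-disc, 0.11 for transcription factor and 0.20 for calcium and excitation genes, beside 0.01 over all genes. With 1 sow for each breed and stage, breed and litter cannot be told apart.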

How the data were processed

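Single-cell RNA-seq of 8 libraries was analysed, 1 for each stage and breed. The authors prepared 10x Chromium 3′ libraries and mapped the reads to Sscrofa11.1 with Cell Ranger, and the values they deposited are UMI counts per gene and barcode. Per the file headers, version 3.1.0 was used for 2 libraries, both of E16, and 3.0.2 for 6. The deposited counts are whole numbers for 21301 genes in the barcodes called as cells, neither normalized nor corrected between libraries.

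Cells and cardiac cells were chosen by the limits given above. The members and the gene lists were chosen with earlier results of these data known. Scrublet in scanpy 1.11.5 scored doublets, which were kept, and their removal at 0.8% per 1000 barcodes was an alternative. Counts of cardiac cells were summed per library, for libraries with at least 20 of them by the rule, and tested with edgeR 4.0.16 in R 4.3.3 (glmQLFit and glmQLFTest, TMM, filterByExpr, Benjamini-Hochberg adjustment, threshold 0.05). For rule genes and mitochondrial genes, which stayed in the fits, no p is given. Each SE of an edgeR log2 value was derived from that value and the F statistic of its test. DESeq2 1.42.0 was an alternative tool. Levels printed are CPM without TMM factors, which differ from TMM-scaled values by 0.905 to 1.09 times, and intervals cover counting error only.

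Named genes were, for each list, up to 6 with the highest mean level or the largest change past the threshold, for stage and breed the 10 symbols a direction with the largest change and a mean of at least 50 CPM, for the interaction the 10 with the smallest adjusted p a direction, and for the contrast with other cells the 20 with the largest lowest fold. CXCL14, SFRP5 and SYNPO2, which passed between stages with lower means, were named after their values were seen, as were the genes of the co-detection shares and of the 3 promoters. The reference cells for free RNA were planned as SOX2 and PAX6 cells, and PAX6 alone was used because no row in the counts used here carries the symbol SOX2. They also had to hold fewer than 10 UMIs of ACTC1. The tests were run on simulated counts. These had the same spread for every gene and no difference between litters, and only genes with higher counts were changed. The shares recovered therefore do not carry over to genes with few UMIs or to the spread between real litters. For the stage comparison over 4378 genes, 51.0% of 2-fold and 97.0% of 4-fold changes were recovered, for breed over 4293 genes 63.0% and 99.0%, and for the interaction over 13621 genes 28.0% and 95.0%. The limit of 20 cells was not applied again in the alternatives, which left down to 7 cells in a library. Alternatives were other normalization, tool, filters, covariates, cell limits, pseudocounts, other comparison cells and each library left out, and, added after seeing the data, no mitochondrial limit and the globin-rich cell left out. Some genes that the naming rule selects are not reported here. Promoter sequences were read with pysam 0.24.0 from the RefSeq genome and annotation of Sscrofa11.1.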

Additional observations from a re-analysis of the deposited data

Results flagged for a closer look

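The stage change of 74 genes differed between the cardiac cells and the other cells of the same 4 libraries by the interaction test of edgeR, 42 with a higher and 32 with a lower change in cardiac cells. These include ACTA1, TNNI1, TRIM55, ACTG2, MYLK and HAND2, whose values are given above.

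Barcodes outside the comparisons also carried the gene profile of the rule. Over the limit of 10% mitochondrial UMIs, 91 barcodes of E16-ZZ and 10 barcodes of E16-DZ had at least 1 UMI of MYBPC3, at least 10 of ACTC1 and 0 of MYOG and MYMK. In E16-ZZ these outnumbered the 70 cells within the limit.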

How the results depend on the processing

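No paired analysis was possible because each stage and breed has a single library and the labels give no replicate numbers that groups share, so only breed as a covariate and library as a block tie the sums in the fits. Between E18 and E16, where 17 genes passed, 32 passed with DESeq2 size factors, 3 with the DESeq2 Wald test, 53 with no filter on low counts, 49 with doublets removed, 41 with MYBPC3 at 2 or more, 55 with ACTC1 at 20 or more, 46 with at least 3000 UMIs a cell, 52 with no mitochondrial limit, 2 without the globin-rich cell, 0 with a limit of 5% (77 under an unadjusted p of 0.05 in edgeR) and 26 to 53 with 1 library left out (29 without E16-ZZ, 38 without E16-DZ, 53 without E18-ZZ, 26 without E18-DZ). Without breed as covariate 13 passed. Between breeds, where 2 passed, the counts for the same settings were 2 with DESeq2 size factors, 1, 14, 6, 8, 10, 6, 12, 1 and 0 (91 under an unadjusted p of 0.05 in edgeR), 1 without stage as covariate, and 6 to 18 with 1 library left out (6 without E16-ZZ, 17 without E16-DZ, 8 without E18-ZZ, 18 without E18-DZ). For the interaction, where 74 passed, 32 passed with the DESeq2 Wald test, 0 with the 5% limit (218 under an unadjusted p of 0.05), 145 with GATA4-positive cells as the other cells and 45 to 68 with 1 library left out (45 without E16-DZ), and the other settings gave 66 to 103.

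Among the called genes followed, the sign reversed for HBZ (-0.29 to 3.54 with 1 library left out), HBE1 (-2.43 to 3.56) and ENSSSCG00000007978 (-0.80 to 3.34). Each of these was negative without E18-ZZ and positive but not called without the globin-rich cell alone. The sign also reversed for TRIM55 (0.039), MYL4 (-0.23) and ANKRD1 (-1.15) with GATA4-positive cells, and for ISL1 (-1.86) with the 5% limit. CASP10, called in the interaction but not followed, had the other sign in 1 alternative. Of the values of the called genes followed, 642 kept direction and side of the threshold, 163 lost the call and 7 reversed. The share of cardiac cells in E16-ZZ was 0.826% with MYBPC3 at 2 or more, 0.326% with the 5% limit and 1.56% without a mitochondrial limit, in E16-DZ 1.69% with MYBPC3 at 2 or more and 1.54% with the 5% limit, in E18-ZZ 0.320% with MYBPC3 at 2 or more and 0.566% with the 5% limit, and in E18-DZ 0.116% with ACTC1 at 20 or more and 0.125% with the 5% limit. Genes 4-fold higher than in other cells numbered 244 at 2-fold, 54 at 8-fold and 56 with 20 added to both levels. Genes 4-fold lower numbered 106 at 2-fold, 2 at 8-fold, 22 with 1 added, 4 with 20 added, 14 with doublets removed and 7 to 19 with 1 library left out (19 without E16-DZ, 11 without E18-ZZ). The 5% limit left fewer cells and genes, and the cause of these differences between settings was not tested. Several settings left fewer than 20 cardiac cells in E18-DZ, and its 20 cells limit what the stage and breed comparisons can show.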
